A study of Bos taurus with 6 samples.

Results

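The 10 genes described here, ATF4, DDIT3, TRIB3, CHAC1, ASNS, PPP1R15A, DDIT4, PSAT1, PHGDH and VLDLR, belong to the integrated stress response and were taken from the expression table by symbol. No measured value entered that rule, but the genes were picked with earlier results of these data known. Each had 1 row among the 18014 features of the expression table, and all 10 were among the 13144 that were tested because their mean reached 0.5 FPKM (fragments scaled to transcript length and to the mapped fragments of the library). The cells were bovine vaginal epithelial cells (BVECs), primary cells grown out of vaginal tissue of healthy young cows and passaged before use. In the SQ0048 group, the monolayer was kept for 4 h with 1000000000 CFU/ml of SQ0048, a Lactobacillus strain, after which unbound bacteria were washed off. The control group received culture medium without bacteria. Each group had 3 polyadenylated RNA libraries. The study called them biological replicates, but the sources used here do not say whether they came from separate cultures or separate cows, so each p-value reflects only how much these libraries vary, which may be technical.

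In the integrated stress response, kinases that sense misfolded protein in the endoplasmic reticulum (ER), amino acid shortage, double-stranded RNA or heme shortage phosphorylate the translation initiation factor eIF2. General protein synthesis then slows, while the mRNA of the transcription factor ATF4 is translated more efficiently because of short upstream reading frames in its leader. ATF4 protein switches on genes for amino acid synthesis and transport, redox balance and cell death, and also PPP1R15A, whose product recruits a phosphatase back to eIF2 and closes the loop. ATF4 is therefore controlled largely at translation, and RNA libraries do not measure its protein.

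The summed FPKM was 343933 to 361055 in the control libraries and 372034 to 378772 in the SQ0048 libraries, and 1876 to 1992 features were listed at 0 in each. The files give no counts, so the depth behind each value is unknown. The markers of epithelial cells summed to 5104 to 5538 FPKM in the control libraries and 6010 to 6293 FPKM in the SQ0048 libraries. Fibroblast markers summed to 527 to 565 FPKM and 540 to 568 FPKM, respectively. Immune and endothelial markers summed to 3.73 to 4.06 FPKM in the control libraries and 4.65 to 4.99 FPKM in the SQ0048 libraries, and 5 of the 8 that were found had a mean under 0.5 FPKM. The epithelial sum and the immune and endothelial sum therefore moved with the group, as did the summed FPKM of all features. Their part in the results below was not tested. The epithelial sum was mostly KRT19, KRT18, KRT8 and KRT7 (1450, 1273, 1118 and 921 FPKM, control means), and the fibroblast sum mostly VIM (478.5 FPKM, control mean). By the test described below, 2 of 13 tested epithelial markers rose (KRT18 and KRT8) and 3 fell (TJP1, GRHL2 and DSP). The shares were 15.4% higher and 23.1% lower, against 8.59% and 15.8% of all tested features. The median log2 fold change of the 13 markers was -0.09. KRT18, KRT8 and DSP lost their calls with quantile normalization. Of 7 tested fibroblast markers, 3 rose (COL1A2, COL1A1 and THY1) and 1 fell (POSTN). These were 42.9% and 14.3%, against 8.59% and 15.8% of all tested features. With single libraries left out, 0 to 3 fibroblast markers rose and 1 fell. These were bulk samples, in which fewer cells of a type and less RNA per cell cannot be told apart.

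Of the 10 genes, 4 (PPP1R15A, DDIT4, CHAC1 and VLDLR) rose in the SQ0048-treated BVECs at an adjusted p under 0.05 (limma on log2(FPKM + 0.1), Benjamini-Hochberg adjustment over all tested features), and 0 fell. Over all tested features 8.59% rose, 15.8% fell and 24.4% did either. With the cutoffs of the study (2-fold or more, unadjusted p under 0.05), 3 of the 10 passed, all higher (PPP1R15A, DDIT4 and CHAC1), against 2.24% of all features higher, 3.28% lower and 5.52% in all. The study applied its cutoffs with edgeR, whereas here they were applied to the limma fit, so these shares are not its result. Among the genes that the study called, more rose than fell. The libraries of the groups did not overlap for 6 of the 10, all higher (those 4, DDIT3 and PHGDH), against 17.4% of all features higher and 28.3% lower. The median log2 fold change of the 10 was 0.57, beside -0.08 over all tested features. With 3 libraries a group the smallest p of an exact permutation test is 0.1, so single genes were judged by the fit across all features.

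**Figure D1:**
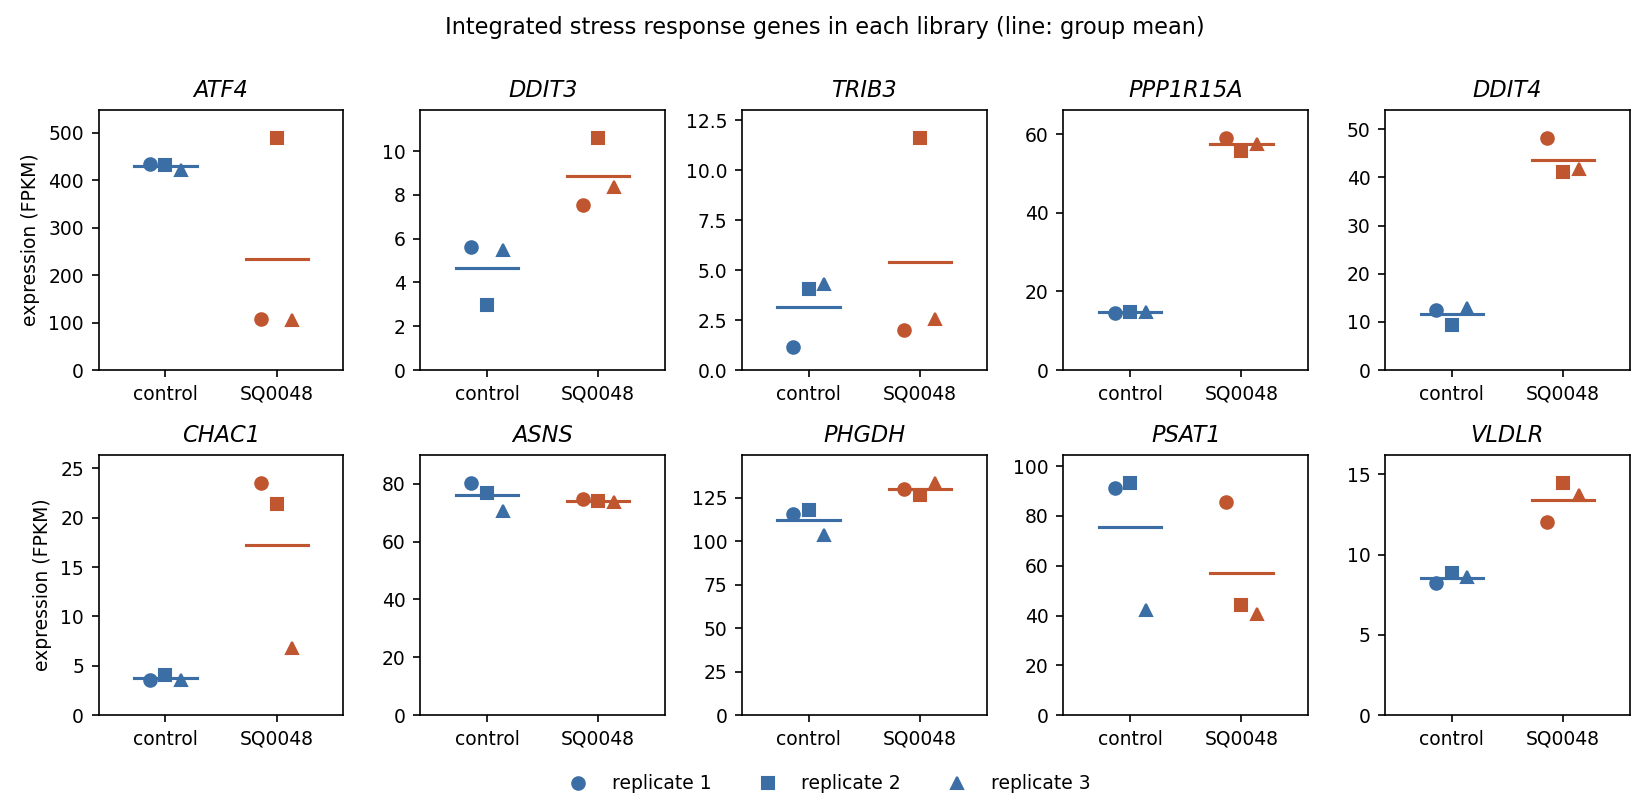
Expression of the 10 genes in each library, in FPKM on linear axes that start at 0 and differ between panels; each point is a library, its shape the replicate number and its line the group mean. PPP1R15A and DDIT4 lay far above the controls in all 3 SQ0048 libraries, whereas ATF4 was at 108 and 105 FPKM in SQ0048 libraries 1 and 3 and at 489 FPKM in library 2.

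ATF4 (feature MSTRG.12608), the transcription factor at the center of the response, had the most abundant RNA of the 10. Its level was 433, 432 and 421 FPKM in the control libraries and 108, 489 and 105 FPKM in the SQ0048 libraries. SQ0048 libraries 1 and 3 lay far below every control, library 2 lay above every control, and the groups therefore overlapped. The highest SQ0048 value was 4.65-fold the lowest, against 1.03-fold among the controls. The group means were 429 ± 6.44 and 234 ± 221 FPKM (SD, n = 3 each), and the log2 fold change of -1.27 (SE 0.61, 95% interval -2.80 to 0.25) did not pass the test (limma, adjusted p = 0.189). One library decided this call. Without SQ0048 library 2 the log2 fold change was -2.01 with a limma adjusted p of 0.000508, and ATF4 then counted as lower.

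The divergent ATF4 values were not shared by its neighbors in the RefSeq gene order (assembly ARS-UCD2.0), which were looked up after the ATF4 values had been seen. MIEF1, on one side, had 4.50, 5.66 and 4.95 FPKM in the control libraries and 5.77, 6.13 and 6.35 FPKM in the SQ0048 libraries. RPS19BP1, on the other side, had 40.9, 42.9 and 36.8 FPKM in the controls and 45.5, 44.1 and 87.3 FPKM in the SQ0048 libraries, so neither dropped in libraries 1 and 3. A single transcript was listed for ATF4.

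PPP1R15A (MSTRG.5234) encodes GADD34, the subunit that directs protein phosphatase 1 to eIF2 and so ends the translational block. Its level was 14.6, 14.8 and 14.9 FPKM in the control libraries and 59.1, 55.7 and 57.4 FPKM in the SQ0048 libraries. All SQ0048 libraries lay far above all controls, and the spread within each group was small. PPP1R15A rose 3.88-fold (log2 fold change 1.96, SE 0.049, 95% interval 1.83 to 2.08, limma adjusted p = 5.43e-05) and passed under every alternative that was run. The study had picked this gene from the same libraries for a PCR assay, so its rise here is not independent evidence.

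DDIT4 (MSTRG.10022) encodes REDD1, a stress-induced inhibitor of the growth kinase complex mTORC1. It had 12.5, 9.34 and 13.0 FPKM in the control libraries and 48.3, 41.1 and 41.7 FPKM in the SQ0048 libraries. The lowest treated library was above the highest control by a wide margin. DDIT4 rose 3.78-fold (log2 fold change 1.92, SE 0.15, 95% interval 1.56 to 2.28, limma adjusted p = 0.00193), also under every alternative.

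CHAC1 (MSTRG.893) encodes a cyclotransferase that degrades glutathione and is a known target of the ATF4, ATF3 and CHOP cascade. Its level was 3.53, 4.07 and 3.60 FPKM in the controls and 23.5, 21.4 and 6.81 FPKM in the SQ0048 libraries. All treated libraries were above all controls, but library 3 rose far less than the other two. The log2 fold change was 1.99 (SE 0.48, 95% interval 0.79 to 3.19) with a limma adjusted p of 0.0348. The call was lost when any control library or SQ0048 library 1 or 2 was left out (limma adjusted p from 0.0790 to 0.0980), whereas without SQ0048 library 3 the log2 fold change was 2.56 with an adjusted p of 0.00255.

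VLDLR (MSTRG.14144), the very low density lipoprotein receptor, takes up triglyceride-rich lipoprotein and is induced through ATF4 in mouse liver under ER stress. It had 8.22, 8.87 and 8.63 FPKM in the control libraries and 12.0, 14.5 and 13.7 FPKM in the SQ0048 libraries. No treated library came down to the control range. VLDLR rose 1.55-fold (log2 fold change 0.64, SE 0.088, 95% interval 0.42 to 0.85, limma adjusted p = 0.00749) under every alternative. Its interval lay wholly below those of PPP1R15A and DDIT4, although the difference between genes was not tested.

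DDIT3 (MSTRG.12199) encodes CHOP, a transcription factor downstream of ATF4 that promotes cell death during unresolved ER stress. It had 5.60, 2.96 and 5.48 FPKM in the controls and 7.56, 10.6 and 8.38 FPKM in the SQ0048 libraries. The groups did not overlap, but control library 2 stood well under the other controls. The log2 fold change of 0.95 (SE 0.28, 95% interval 0.25 to 1.64) did not pass the test (limma adjusted p = 0.0601). It passed under 2 other scalings, median-of-ratios size factors (log2 fold change 1.03, adjusted p = 0.0468) and quantile normalization (1.07, adjusted p = 0.0439).

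TRIB3 (MSTRG.2664) encodes a pseudokinase that is induced by ATF4 and CHOP and dampens both. It had 1.16, 4.06 and 4.30 FPKM in the control libraries and 2.02, 11.6 and 2.57 FPKM in the SQ0048 libraries. SQ0048 library 2 was the highest of all 6, and the other two treated libraries fell between the lowest and the middle control. The log2 fold change was 0.51 (SE 0.82, 95% interval -1.52 to 2.53, limma adjusted p = 0.686), and it turned to -0.26 without SQ0048 library 2 and to -0.079 without control library 1. SQ0048 library 2 thus held the highest treated value of ATF4, TRIB3, DDIT3 and VLDLR, but not of the other members.

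**Figure D2:**
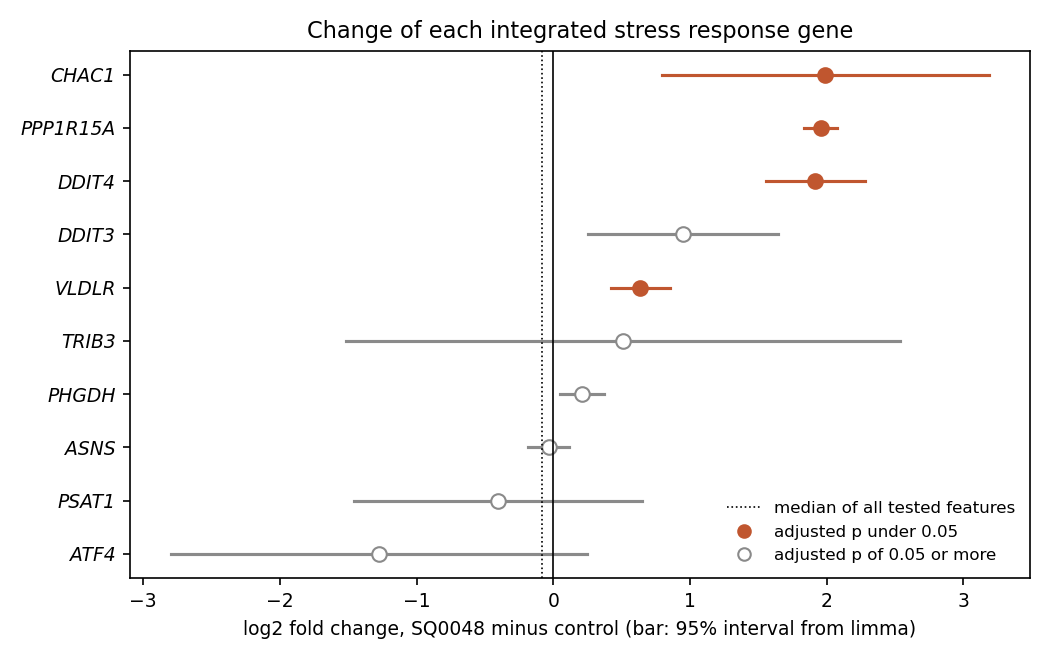
Log2 fold change (SQ0048 minus control, log2(FPKM + 0.1) scale) of the 10 genes, with bars for the 95% interval of the limma fit, filled points for an adjusted p under 0.05 and a dotted line at the median of all tested features (-0.08). The intervals of PPP1R15A (1.83 to 2.08), DDIT4 and VLDLR are narrow and lie above 0, and those of ATF4 and TRIB3 are wide and cross it.

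None of the 3 enzymes of amino acid synthesis among the members passed the test. ASNS (MSTRG.11457), which makes asparagine from aspartate and is a classic ATF4 target, had 80.3, 76.9 and 70.7 FPKM in the controls and 74.8, 74.2 and 73.5 FPKM in the SQ0048 libraries. The treated values lay within the control range. Its log2 fold change of -0.033 had a 95% interval of -0.18 to 0.12 (limma adjusted p = 0.726). This interval lay wholly below that of VLDLR (0.42 to 0.85), although the difference between the genes was not tested.

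PHGDH (MSTRG.10822), which catalyzes the first committed step of serine synthesis from a glycolytic intermediate, had 116, 118 and 104 FPKM in the controls and 130.1, 127 and 134 FPKM in the SQ0048 libraries. Every treated library was above every control by a small margin. The log2 fold change was 0.21 (SE 0.064, 95% interval 0.05 to 0.37, limma adjusted p = 0.0651), and it passed only with median-of-ratios size factors (0.30, adjusted p = 0.0351) among the alternatives run.

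PSAT1 (MSTRG.14191), the aminotransferase of the next step in serine synthesis, had 91.2, 93.3 and 42.4 FPKM in the control libraries and 85.7, 44.4 and 40.5 FPKM in the SQ0048 libraries. Control libraries 1 and 2 and SQ0048 library 1 were high, and the remaining libraries of both groups were at about the level of each other and far lower. The log2 fold change was -0.41 (SE 0.43, 95% interval -1.46 to 0.65, limma adjusted p = 0.524). PSPH, which completes the pathway, was at 28.8 ± 2.37 FPKM in the controls and 31.9 ± 1.96 FPKM after treatment (SD, n = 3 each; limma adjusted p = 0.246).

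The genes differed widely in how well their replicates matched. In the SQ0048 group the highest library was at least 2-fold the lowest for 4 of the 10 (ATF4, TRIB3, CHAC1 and PSAT1), compared with 12.8% of all tested features. In the control group this held for 2 of the 10 (TRIB3 and PSAT1), compared with 13.7%. ATF4 and TRIB3 reached 4-fold in the SQ0048 group, as did 5.13% of all tested features. Of the 4613 features whose mean was 10 FPKM or more, ATF4, CHAC1 and PSAT1 among them, 6.33% differed at least 2-fold between SQ0048 libraries and 1.84% at least 4-fold.

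As FPKM is scaled to transcript length, levels can be ordered between genes. In the control libraries the order was ATF4, PHGDH, ASNS, PSAT1, PPP1R15A, DDIT4, VLDLR, DDIT3, CHAC1 and TRIB3. The ranges of ASNS and PSAT1 overlapped there, as did those of DDIT3, CHAC1 and TRIB3, each with the next. In the SQ0048 libraries PPP1R15A was in the fourth place with a range that overlapped that of PSAT1, and CHAC1 moved above VLDLR with overlapping ranges. ATF4 kept the first place by its mean of 234 FPKM, but its range of 105 to 489 FPKM enclosed that of PHGDH.

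Over the 6 libraries, which fall into 2 groups so that a correlation also carries the difference between them, PPP1R15A followed DDIT4 (Pearson r = 0.987) and VLDLR (0.961) on the log2(FPKM + 0.1) scale, and DDIT4 followed VLDLR (0.924). ATF4 ran opposite to PHGDH (-0.684), DDIT4 (-0.680) and PPP1R15A (-0.672). These values describe 6 points and were not tested.

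The named features most like ATF4 were ABHD4, an abhydrolase of lipid metabolism (r = 0.9995), and 2 features listed under Ensembl identifiers (0.9963 and 0.9943). ABHD4 had 29.4, 31.8 and 25.8 FPKM in the controls, 39.8 FPKM in SQ0048 library 2 and was listed at 0 in SQ0048 libraries 1 and 3. Both genes were thus low in the same pair of treated libraries. In all, 7 named features reached r = 0.99 with ATF4.

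IRF2BPL, a feature listed under an Ensembl identifier and PFKFB3, a regulator of glycolysis, were most like PPP1R15A, which had 118 named features at r = 0.99 or above. IRF2BPL was listed at 0 in every control library and had 6.38, 5.49 and 6.09 FPKM in the SQ0048 libraries. The closest to DDIT3 were SNORD14 (0.9919), PHF2 (0.9898) and PFKP (0.9886), and the closest to VLDLR were CHMP4C (0.9977), GPS1 (0.9925) and FAM98C (0.9915). PPP1R15A thus had many features with a like pattern, as did DDIT4 (48 at r = 0.99 or above), and DDIT3 (1) and VLDLR (3) few. With 6 libraries in 2 groups, such counts also depend on how closely the replicates of a gene match.

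**Figure D3:**
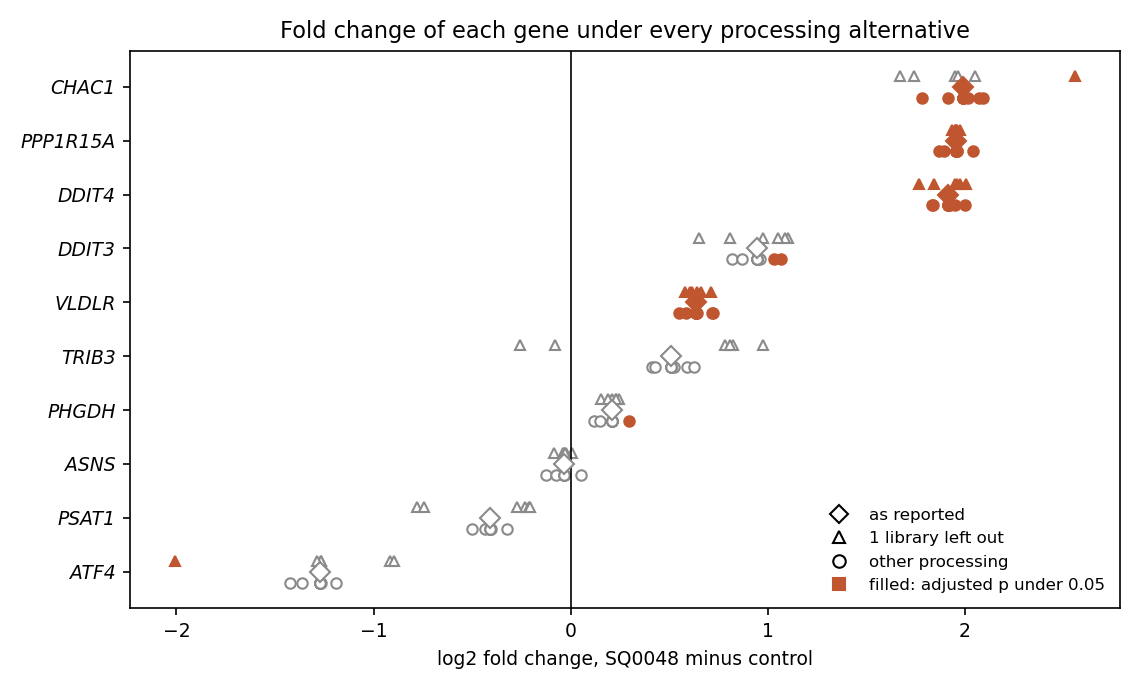
Log2 fold change (SQ0048 minus control) of each of the 10 genes as reported (diamonds), with 1 library left out (triangles) and under other processing (circles), filled where the adjusted p was under 0.05; symbols at the same value cover each other, among them the open circle of CHAC1 under the replicate block. PPP1R15A, DDIT4 and VLDLR were called under each alternative, CHAC1 under some, and ATF4 only without SQ0048 library 2 (-2.01).

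Upstream of ATF4, 17 genes were tested, of which 0 rose and 4 fell. The share that fell was 23.5%, against 15.8% of all tested features, and the median log2 fold change was -0.17. The list held genes for eIF2 kinases, eIF2 subunits, eIF2B subunits, phosphatase subunits and regulators of these. As kinases and the phosphatase that opposes them were in 1 list, its median gives no direction for the pathway. The number that fell was 2 to 5 as single libraries were left out. EIF2AK4, which encodes GCN2, the kinase that senses amino acid shortage, fell from 5.72, 5.48 and 5.50 FPKM to 3.80, 4.10 and 3.89 FPKM (log2 fold change -0.49, limma adjusted p = 0.0081). EIF2AK3, which encodes the ER stress kinase PERK, had 13.97, 12.4 and 14.6 FPKM in the controls and 8.18, 12.1 and 8.41 FPKM in the SQ0048 libraries and did not pass (-0.53, limma adjusted p = 0.0728). The treated libraries were below all controls for both kinases, and for EIF2AK3 library 2 came close to them. Without SQ0048 library 2, EIF2AK3 was called lower (-0.71, limma adjusted p = 0.0139).

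The other genes that fell in this list were EIF2S2, which encodes the beta subunit of eIF2 (-0.45), the phosphatase subunit gene PPP1CB (-0.46) and DNAJC3 (-0.38), which encodes an ER co-chaperone also described as an inhibitor of eIF2 kinases. The limma adjusted p was 0.0111, 0.0181 and 0.0211, respectively, but PPP1CB and DNAJC3 lost their call when control library 1 or 3 or SQ0048 library 1 or 3 was left out (up to 0.0630 and 0.0713). The kinases for double-stranded RNA, EIF2AK2, and for heme shortage, EIF2AK1, did not pass (adjusted p = 0.941 and 0.586). PPP1R15B, the constitutive counterpart of PPP1R15A, was below the level needed for a test.

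Among 12 tested partners and feedback factors of ATF4, 3 rose and 1 fell, with a median log2 fold change of 0.15. The shares were 25.0% higher and 8.33% lower, against 8.59% and 15.8% of all tested features. As single libraries were left out, 1 to 3 rose and the median was 0.02 to 0.35. EGLN3 and FBXW11 lost their calls without control library 1 or 3 or SQ0048 library 1 (limma adjusted p up to 0.0589 and 0.0731 over the alternatives), and FBXW11 also without SQ0048 library 3. ATF3, a stress-induced repressor that acts with ATF4, had 7.89, 8.40 and 7.49 FPKM in the controls and 42.5, 40.7 and 34.8 FPKM in the SQ0048 libraries. Its values were far apart between the groups and close within them (log2 fold change 2.29, limma adjusted p = 0.000381). CREBRF, a regulator of the CREB3 family, fell (-0.86, adjusted p = 0.0130).

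Of 17 other ATF4 targets tested, 9 rose and 1 fell, with a median log2 fold change of 0.58. The shares were 52.9% higher and 5.88% lower, against 8.59% and 15.8% of all tested features. BCL2L11 (1.79), which encodes the cell death protein BIM, rose from 5.10 ± 0.183 to 17.9 ± 0.478 FPKM (SD, n = 3 each). SQSTM1 (1.66), which encodes an autophagy receptor, rose from 172 ± 8.28 to 546 ± 24.4 FPKM (SD, n = 3 each). NDRG1 rose from 28.7 to 70.9 FPKM and JMJD6 from 8.68 to 27.4 FPKM (means, n = 3 each), and the limma adjusted p of these 4 genes was from 0.000179 to 0.000834. KLHL24 was the one that fell (-1.04, limma adjusted p = 0.0239), a call lost without control library 1 or 3 or SQ0048 library 1 or 3 (up to 0.0807). Other factors also control these targets, and SQSTM1 is induced by NRF2 as well.

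Of 13 genes of amino acid synthesis and one-carbon metabolism, 0 rose and 2 fell, namely GPT2 (-0.56, limma adjusted p = 0.0250) and MTHFD2 (-0.22, adjusted p = 0.0409), with a median of -0.06 that turned to 0.03 with size factors. The share that fell, 15.4%, was near the 15.8% of all tested features. MTHFD2 lost its call without any 1 of the 6 libraries, and GPT2 without any control library or SQ0048 library 3 (up to 0.0797). Of 11 amino acid transporters, 2 rose and 3 fell, with a median of 0.07 that turned to -0.02 when each library was rescaled to the same sum. The shares were 18.2% higher and 27.3% lower, against 8.59% and 15.8% of all tested features. As single libraries were left out, 1 to 3 rose and 3 fell, and SLC1A4, which rose by 0.54, lost its call without control library 1 or SQ0048 library 1 (limma adjusted p up to 0.0663). SLC3A2, the shared heavy chain of several exchangers, rose from 69.5, 69.7 and 69.2 FPKM to 108, 103 and 105 FPKM (0.60, adjusted p = 0.00168), whereas SLC36A4 (-0.69), SLC38A2 (-0.56) and SLC38A1 (-0.49) fell (adjusted p from 0.00685 to 0.0111).

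Of 11 aminoacyl-tRNA synthetases that ATF4 is known to induce, 0 rose and 4 fell, with a median log2 fold change of -0.29. The share that fell was 36.4%, against 15.8% of all tested features. CARS (-0.32, limma adjusted p = 0.00869) and YARS (-0.32, adjusted p = 0.0111) encode the enzymes for cysteine and tyrosine, and LARS (-0.49) and IARS (-0.43) those for leucine and isoleucine (limma adjusted p = 0.0239 and 0.0326). LARS and IARS lost their call without control library 1 or 3 or SQ0048 library 1 or 3 (up to 0.0795 and 0.0987). As single libraries were left out, 2 to 6 fell (6 without SQ0048 library 2) and 0 to 1 rose (1 without control library 2). The count was 0 higher and 7 lower with rescaling to the same sum, and 1 higher and 3 lower with size factors.

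**Figure D4:**
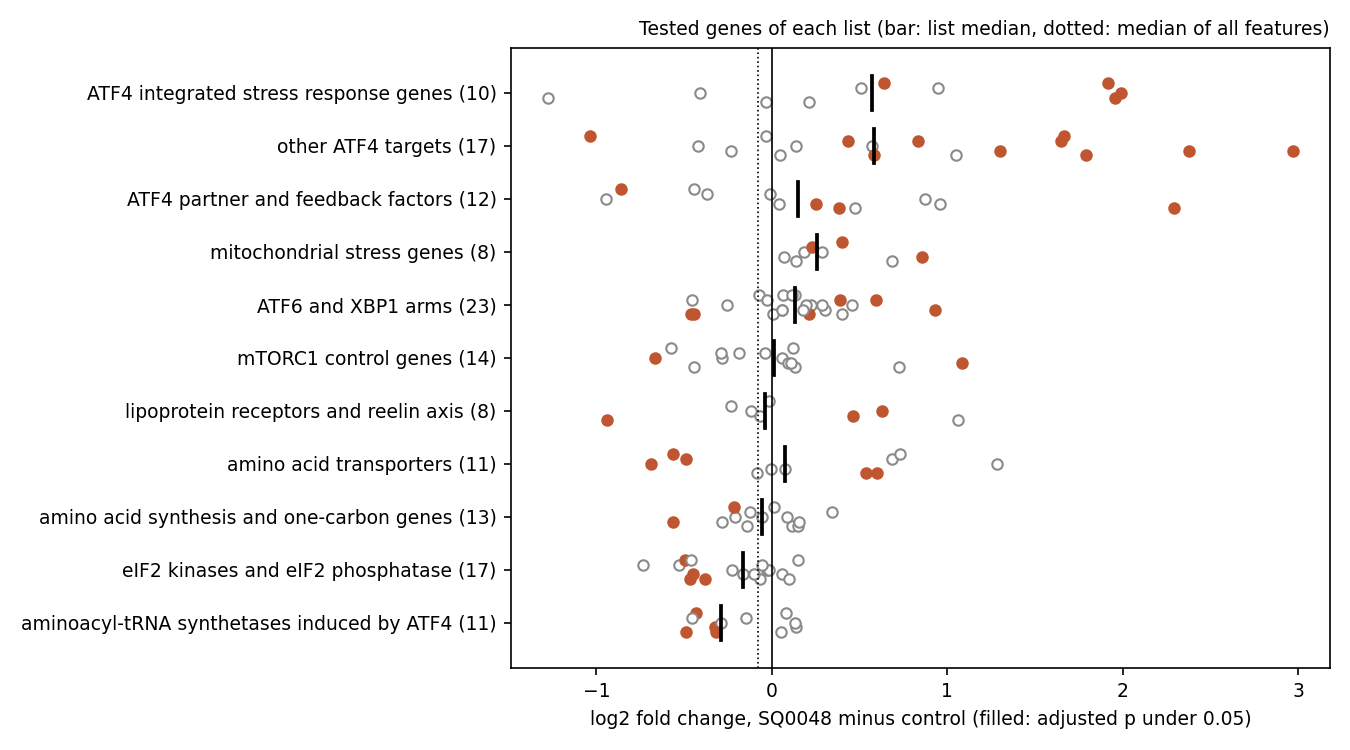
Log2 fold change (SQ0048 minus control) of every tested gene in the 10 members and in the lists of the ATF4 pathway and neighboring pathways, with the number tested in parentheses, filled points for an adjusted p under 0.05, a bar at each list's median and a dotted line at the median of all features. The medians of the members and the other ATF4 targets lie at 0.57 and 0.58, and that of the aminoacyl-tRNA synthetases at -0.29.

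The ATF6 and XBP1 arms of the ER stress response, which raise folding capacity independently of eIF2, had 4 genes that rose and 2 that fell among 23 tested, with a median log2 fold change of 0.13. The shares were 17.4% higher and 8.7% lower, against 8.59% and 15.8% of all tested features. As single libraries were left out, 2 to 6 rose, with 2 without control library 1 and 6 without SQ0048 library 2. PDIA4, an ER disulfide isomerase that rose by 0.21, lost its call under 6 alternatives (limma adjusted p up to 0.333). HSPA5, the ER chaperone BiP, rose from 224, 205 and 222 FPKM to 450.4, 409.7 and 379.7 FPKM (0.93, limma adjusted p = 0.00251). MANF (0.60) and CRELD2 (0.39), both secreted or ER proteins induced by unfolded protein, were also called higher at limma adjusted p = 0.0148 and 0.0102 (MANF not without control library 1 or SQ0048 library 1, up to 0.0566), whereas ATF6 itself fell (-0.44, adjusted p = 0.00816).

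The medians of the heat shock and NRF2 lists were above those of the lists linked to eIF2. All lists were chosen with earlier results of these data known, so this order depends on which genes each holds, and it was not tested. Of 13 heat shock genes 8 rose and 0 fell (median 1.39), and of 10 NRF2 genes 7 rose and 0 fell (median 1.35). The shares that rose were 61.5% and 70.0%, against 8.59% of all tested features. With single libraries left out, 6 to 9 heat shock genes and 6 to 8 NRF2 genes rose. Of 8 mitochondrial stress genes 3 (37.5%) rose and 0 fell (median 0.26), but the count was 0 after rescaling to the same sum and 0 to 2 as single libraries were left out. Of 14 genes that control mTORC1, the complex that DDIT4 restrains, 1 rose and 1 fell (median 0.01), namely CASTOR1 (1.08) and TSC1 (-0.67), the latter not without control library 1 or 3 or SQ0048 library 1 or 3 (limma adjusted p up to 0.0648). Each was 7.14% of the list, under the 8.59% higher and 15.8% lower of all tested features. Of 8 lipoprotein receptor and reelin pathway genes, the group of VLDLR, 2 rose and 1 fell (median -0.04, which turned to 0.10 without SQ0048 library 2). MYLIP (0.63) and LRPAP1 rose and LRP6 (-0.94) fell. The shares were 25.0% higher and 12.5% lower, against 8.59% and 15.8% of all tested features. LRPAP1, one of those that rose (0.46), lost its call without any control library or SQ0048 library 3 (limma adjusted p up to 0.0678), which left 1.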

How the data were processed

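RNA-seq was done on an Illumina HiSeq instrument. The authors trimmed, aligned and assembled the reads (HISAT2 2.0 and StringTie 1.3.0 on ARS-UCD1.2 per the labels, with Bowtie 0.12.2 also named; the paper names Cufflinks) and deposited 1 table of FPKM values with 2 decimals. FPKM holds no counts, and rounding coarsens low values. All 6 value columns were used and 0 were left unused. Here, log2(FPKM + 0.1) was fitted with limma 3.58.1 (trended eBayes, R 4.3.3) over 13144 features (those whose mean reached 0.5 FPKM), SQ0048 against control, two-sided, with Benjamini-Hochberg adjustment, and the fit was tested on simulated data. All 10 members were named, and of each other list up to 4 genes called by the smallest adjusted p. PSPH, KLHL24, EIF2AK1, EIF2AK2, EIF2AK3, PPP1R15B, SLC1A4, PDIA4, KRT7, KRT19, DSP, VIM and the neighbors of ATF4 were added after their values were seen. The members and lists were chosen with earlier results of these data known. Tables were handled in Python 3.11.15 with pandas 2.3.3. Gene order was read from RefSeq (ARS-UCD2.0) for the neighbors of all 10 members, of which only those of ATF4 are given here. Sequences and promoter motifs were not analysed.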

Additional observations from a re-analysis of the deposited data

How the results depend on the processing

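Alternatives were 2 other pseudocounts, 2 other filters, 3 other scalings, untrended eBayes, summed rows per symbol, each library left out and a replicate block. PPP1R15A, DDIT4 and VLDLR kept their calls under each. Members called higher numbered 3 to 4 and members called lower 0 to 1 as single libraries were left out. With size factors 6 members were called higher, and with quantile normalization 5. The replicate block left 3 members called, with 320 features higher and 527 lower (from 1129 and 2072). Under the block no gene was called in the lists upstream of ATF4, of amino acid synthesis or of aminoacyl-tRNA synthetases. Same-numbered libraries did not deviate together (r from -0.0124 to 0.0102), so the numbers were not taken as pairs, and CHAC1 had a limma adjusted p of 0.0692 under the block. Leaving out single libraries gave 550 to 954 features higher (550 without SQ0048 replicate 1) and 1112 to 2012 lower, and a mean filter of 5 FPKM gave 1348 lower. The median log2 fold change of all features was -0.0477 with no filter, -0.0433 with the 5 FPKM filter, -0.171 after rescaling to the same sum, 0.0014 with size factors and -0.0057 with quantile normalization. The share of calls that were lower was 64.7% and became 77.8%, 50.7% and 54.6% under those 3 scalings. ASNS turned to 0.0523 with size factors and ranged from -0.084 to 0.0083, and TRIB3 from -0.26 to 0.98, as single libraries were left out. TRIB3 was not tested with the 5 FPKM filter. Of 69 genes called in the other lists, 38 kept their call under every alternative other than the block. Depth is unknown, values have 2 decimals, and 3 libraries a group set the precision.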
